A study of Mus musculus with 9 samples.

Results

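The 10 immediate early genes examined here are neuronal immediate early genes other than the Fos and Jun family: the transcription factor genes Egr1, Egr2, Egr3, Egr4, Nr4a1, Nr4a3 and Npas4, the synaptic effector gene Arc, and the regulators Btg2 and Ier2. They were found by their symbols, which named 10 of the 24624 genes in a table of RNA levels in the cerebral cortex of mice at postnatal day 0 (P0). Each library held RNA from the paired cortical hemispheres of 1 mouse, and the sexes were not determined. The 3 genotypes sequenced were these: wild type cortices (Fezf2+/+, 3 libraries), cortices null for the transcription factor gene Fezf2 (Fezf2-/-, 4 libraries), and null cortices that also carried the Fezf2-EnR transgene (Fezf2-/-; Fezf2-EnR, 2 libraries, called Fezf2-EnR cortices here). In the null allele a placental alkaline phosphatase gene is knocked in at Fezf2. The transgene is a bacterial artificial chromosome of the Fezf2 region that expresses the DNA-binding domain of FEZF2 joined to a domain of engrailed that represses transcription. No cortex was stimulated, so the values are the levels present at dissection. The labels name 3 litters. Litter m1 gave 2 Fezf2+/+ and 2 Fezf2-/- libraries, litter m2 gave 1 Fezf2+/+ and 1 Fezf2-EnR library, and litter m3 gave 2 Fezf2-/- libraries and 1 Fezf2-EnR library, so no litter held all genotypes.

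Immediate early genes are transcribed within minutes of a stimulus, before any new protein is made. In neurons, calcium entry and MAP kinase signalling act on factors already bound at these genes, chiefly CREB, SRF and MEF2, and their RNAs are short-lived, which is why they are widely used to mark recently active cells. EGR factors, the NR4A orphan nuclear receptors and NPAS4 then regulate later genes, whereas ARC acts at the synapse.

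Values are normalized counts, which are read counts divided by a size factor of the library. The libraries held between 18716575 and 25127623 reads. Fezf2 itself, at 979 to 1232 in Fezf2+/+, lay between 193 and 242 in Fezf2-/- and at 907 and 1001 in Fezf2-EnR, where reads of the gene and of the transgene cannot be told apart. The 8 markers of cortical glutamatergic neurons summed to between 45919 and 56589 in every library. Of these, Slc17a6, a vesicular glutamate transporter, was called higher in the null than in wild type (log2 fold change 0.59, limma adjusted p = 0.037), and the cortical transcription factor gene Emx1 lower (-0.44, limma adjusted p = 0.030). Libraries bc204 (Fezf2-/-) and bc208 (Fezf2-EnR), both of litter m3, stood apart in the summed normalized count of 6 markers of striatal projection neurons, the principal cells of the tissue beneath the cortex, at 2852 and 2204 against 949 to 1677 in the other libraries.

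RefSeq promoter windows (GRCm38.p6), which run from 250 bases before to 50 bases after a transcript start, were at hand for 6 of the 10 members, namely Egr2, Egr4, Npas4, Nr4a1, Nr4a3 and Btg2. All 6 had at least 1 window with TGACG on either strand, the core of the cyclic AMP response element to which CREB binds. The core was in 20.81% of all 32851 windows, a share per window and not per gene. Egr2 had several windows, some of them without the core, and each other member had a single window. Shown are the stretches before the annotated exons for the nuclear receptor gene that differed between genotypes, for its relative Nr4a2, and for Btg2, whose window was the single one among the members to hold the full element TGACGTCA, found in 1.79% of all windows. Capitals mark the core, each strand is that of the gene, and in Btg2 a pair of overlapping cores forms the full element. Nr4a3 lies on the plus strand (chr4:48045055-48045152), and Nr4a2 (chr2:57124004-57124253) and Btg2 (chr1:134079156-134079405) lie on the minus strand.
Nr4a3: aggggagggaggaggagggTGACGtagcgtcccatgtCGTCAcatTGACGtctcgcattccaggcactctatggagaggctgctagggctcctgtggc
Nr4a2: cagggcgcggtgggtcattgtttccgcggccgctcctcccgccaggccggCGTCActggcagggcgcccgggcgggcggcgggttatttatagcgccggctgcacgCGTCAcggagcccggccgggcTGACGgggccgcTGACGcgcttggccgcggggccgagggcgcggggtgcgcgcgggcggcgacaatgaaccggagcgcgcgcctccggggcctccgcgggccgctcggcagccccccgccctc
Btg2: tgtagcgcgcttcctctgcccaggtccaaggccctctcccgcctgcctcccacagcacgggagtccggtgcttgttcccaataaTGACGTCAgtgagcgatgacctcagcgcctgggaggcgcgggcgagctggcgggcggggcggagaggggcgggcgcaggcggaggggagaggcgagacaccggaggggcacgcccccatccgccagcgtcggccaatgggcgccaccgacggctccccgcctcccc
The CArG box to which SRF binds was found in windows of Egr2, and in 1.63% of all windows. EGR sites (GCGTGGGCG or GCGGGGGCG on either strand) were in the window of Nr4a1 and in 3.47% of all windows. No member's window held the NR4A element AAAGGTCA, which was in 1.51% of all windows. These matches are letters in a window, and no binding was measured.

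Within wild type cortex, levels were compared between genes as normalized counts per kilobase of exon, with exons from GENCODE M21. Nr4a3 was highest, with a median of 185 per kilobase (146.9 to 200.2), and its libraries did not overlap those of Egr1, next in order at 99.2 (47.5 to 105). Ier2 (82.3 per kilobase), Egr3 (43.2), Btg2 (35.7) and Nr4a1 (35.2) followed. The lowest were Arc (8.57), Egr2 (6.47), Egr4 (4.90) and Npas4 (4.84). Of the 9 pairs of neighbours in this order, 5 overlapped between libraries, namely Egr1 with Ier2, Egr3 with Btg2, Btg2 with Nr4a1, Arc with Egr2, and Egr4 with Npas4. In Fezf2-/- cortices 7 pairs of neighbours overlapped, and Nr4a3, at a median of 339 per kilobase, again stood clear of Egr1 at 105. In Fezf2-EnR cortices Btg2 took the second place, at a median of 75.3 per kilobase, with Egr1 at 51.1. The scarcest members rested on few reads, between 4 and 32 a library for Egr4 and between 8 and 35 for Npas4.

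**Figure D1:**
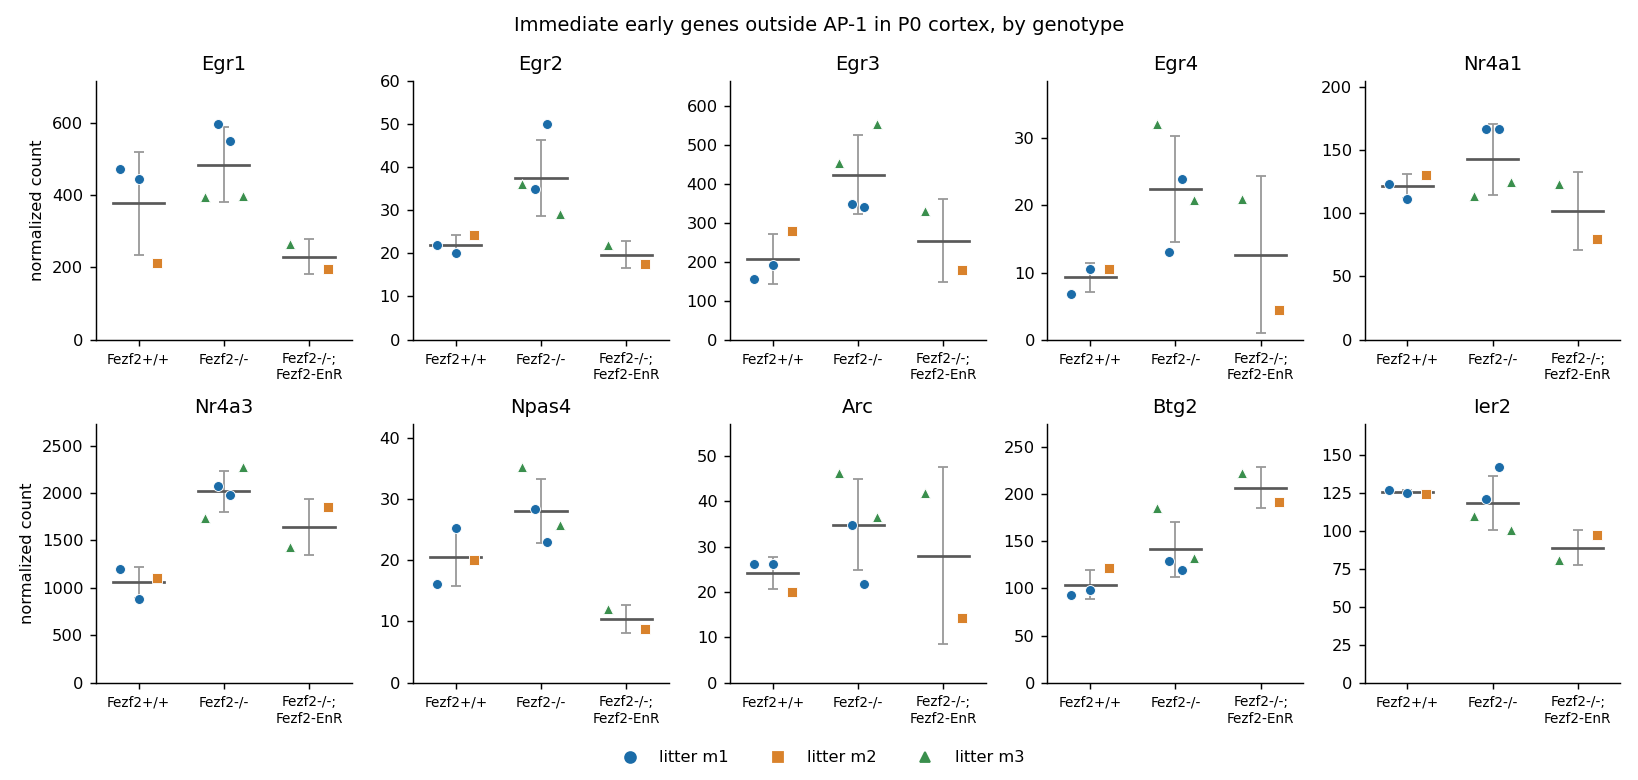
Normalized counts (y axis, from 0, 1 scale per gene) of the 10 immediate early genes in each library, by genotype (x axis). Points are libraries, with shape and colour giving the litter, horizontal lines are means and bars are ± 1 SD. All 4 Fezf2-/- libraries lie above all 3 Fezf2+/+ libraries for Nr4a3, Egr2, Egr3 and Egr4, and both Fezf2-EnR libraries lie below all Fezf2-/- libraries for Egr1, Egr2, Egr3, Npas4 and Ier2.

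The comparison of null with wild type cortices asked which of these RNAs differ when Fezf2 is lost. Nr4a3, which encodes an orphan nuclear receptor (ENSMUSG00000028341.9, chr4:48045153-48086447, GRCm38), was higher in the null. It stood at 1199, 880 and 1106 normalized counts in Fezf2+/+ and at 1740, 2072, 1983 and 2272 in Fezf2-/-. The lowest null library thus lay above the highest wild type library. The means were 1061 ± 164 (SD, n = 3) and 2017 ± 220 (SD, n = 4), a 1.90-fold difference, and the log2 fold change of the normalized count plus 1 was 0.93 ± 0.13 (SE, limma, Benjamini-Hochberg adjusted p = 0.0058). The exact two-sided permutation test over 35 arrangements of the libraries gave p = 0.0286, the smallest it can give. Because these are bulk samples, more cells that express a gene and more RNA per cell cannot be told apart.

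Nr4a3 was the 1 member of 10 called in this comparison at an adjusted p under 0.05, against 0.858% of the 16197 genes tested. It was called in every one of the 22 other settings tried, with log2 fold changes from 0.80 to 1.03. In litter m1, where 2 null and 2 wild type littermates can be set side by side, the ratio of means was 1.95. Summed markers of GABAergic interneurons were also higher in the null, at 7827 to 8781 against 6026 to 6444 in wild type. In Fezf2-EnR the sum did not follow Nr4a3, at 7169 in bc208 and 6066 in bc209, where Nr4a3 stood at 1432 and 1851. In the null against wild type, 5 of the 6 markers had an unadjusted p under 0.05, beside 10.8% of all genes. None was called, against 0.858% of all genes. Among these markers Gad1, the enzyme that makes GABA, lay 0.71 higher on the log2 scale (limma adjusted p = 0.148, not called). Their part in the Nr4a3 difference was not tested.

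In the Fezf2-EnR cortices Nr4a3 stood at 1432 and 1851, above all wild type libraries and overlapping the null range. The log2 fold change was -0.30 against the null (95% interval -0.62 to 0.017, limma adjusted p = 0.314) and 0.63 against wild type (0.29 to 0.97, limma adjusted p = 0.115). Neither was called. Against wild type, Nr4a3 was called without replicate bc208, at 0.81 (limma adjusted p = 0.044), and by DESeq2, at 0.63 (adjusted p = 0.0057), whereas without replicate bc209 it was 0.44 (limma adjusted p = 0.401).

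The family holds a pair of further receptor genes. Nr4a1 (ENSMUSG00000023034.7, chr15:101254269-101274795, GRCm38), a receptor gene much used as an activity marker, stood at 123, 112 and 131 in Fezf2+/+, at 113, 167, 167 and 125 in Fezf2-/-, and at 123 and 79.8 in Fezf2-EnR. The groups overlapped in every comparison, and the null differed from wild type by 0.21 on the log2 scale (95% interval -0.20 to 0.62, limma adjusted p = 0.738). In litter m1 alone this difference was 0.50 (limma adjusted p = 0.142), and with litter as a block it was 0.22 (limma adjusted p = 0.782). Nr4a2, known for its part in subplate and dopamine neurons, is not among the 10 members. It stood at 2179, 2393 and 2156 in Fezf2+/+, at 3357, 3462, 3575 and 4796 in Fezf2-/-, and at 2653 and 2016 in Fezf2-EnR. It was called in the null, at 0.75 ± 0.13 (SE, limma adjusted p = 0.025), and differed from the null in Fezf2-EnR by -0.70 ± 0.15 without being called (limma adjusted p = 0.065). The difference between Nr4a2 and Nr4a3 in the Fezf2-EnR cortices was not tested.

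**Figure D2:**
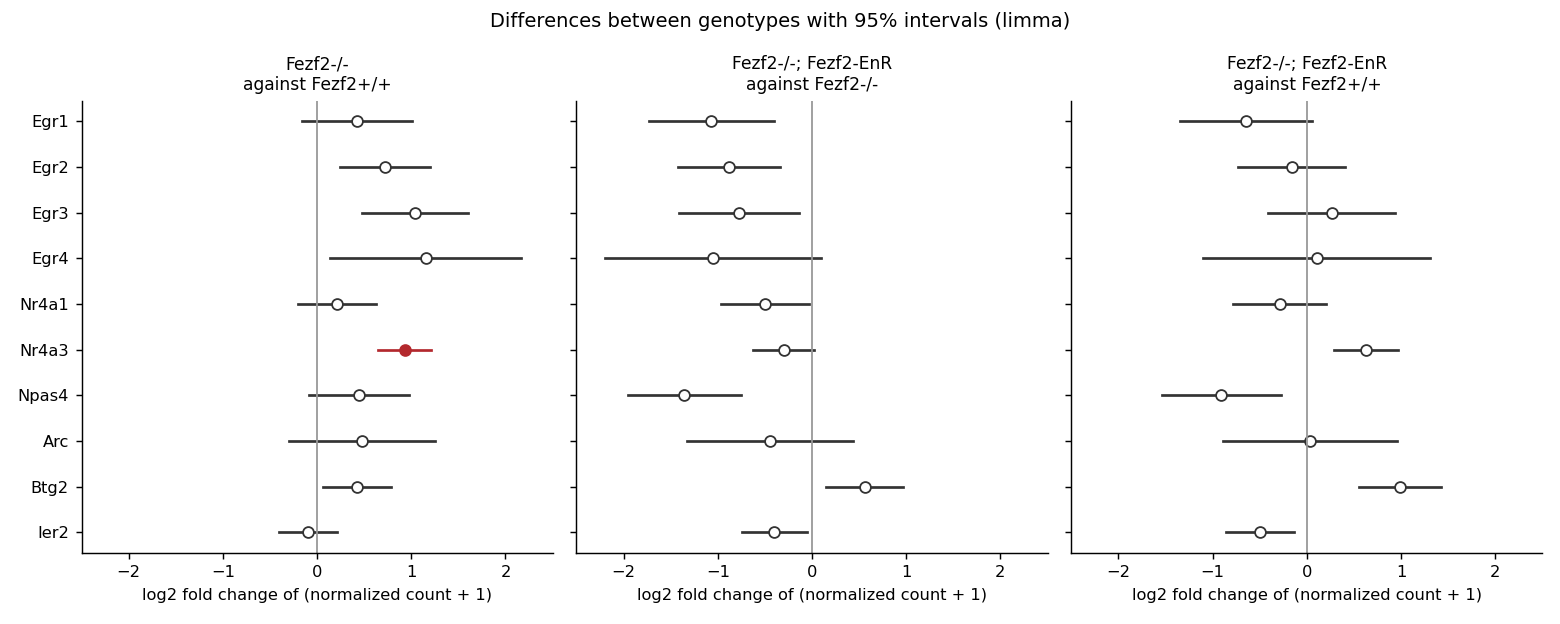
Log2 fold changes of the normalized count plus 1 (x axis) for each member (y axis) in the 3 comparisons, with 95% intervals from limma. Filled red marks a call at an adjusted p under 0.05. Nr4a3 in Fezf2-/- against Fezf2+/+, at 0.93, is the single call, and Btg2 is the single member on the positive side in Fezf2-EnR against Fezf2-/-.

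The EGR zinc finger factors recognise a shared GC-rich site. Egr3 (ENSMUSG00000033730.4, chr14:70077203-70082614, GRCm38), which is needed for muscle spindles and acts in learning, stood at 155, 190 and 279 in Fezf2+/+ and at 454, 349, 340 and 554 in Fezf2-/-. All null libraries lay above all wild type libraries. The ratio of means was 2.04 and the log2 fold change 1.04 ± 0.26 (SE), at an unadjusted p of 0.0020 that did not pass across all genes (limma adjusted p = 0.129). Among the tools and subsets tried, 2 called it, limma on litter m1 alone (1.0002, adjusted p = 0.0057) and DESeq2 on all libraries (1.03, adjusted p = 0.0035), whereas edgeR did not (1.04, adjusted p = 0.132). With litter as a block the difference was 0.77 (limma adjusted p = 0.114), the lowest of all settings. Litter m3, which held no wild type library, lay 0.77 ± 0.18 (SE) above litter m1 with genotype in the fit (limma F test for litter, adjusted p = 0.086). Fezf2-EnR libraries stood at 330 and 178, both below the lowest null library at 340, the former by little, with a log2 fold change of -0.78 against the null (95% interval -1.42 to -0.13, limma adjusted p = 0.224). It was -1.22 without replicate bc208 (limma adjusted p = 0.055) and -0.33 without replicate bc209 (limma adjusted p = 0.827).

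Egr2 (ENSMUSG00000037868.15, chr10:67535475-67542188, GRCm38), the regulator of hindbrain patterning and of myelination in peripheral nerve, was low throughout. It stood at 21.97, 19.99 and 24.24 in Fezf2+/+, at 36.16, 34.87, 50.04 and 29.07 in Fezf2-/-, and at 21.9 and 17.5 in Fezf2-EnR. Null libraries lay above those of both other genotypes. The log2 fold change was 0.72 ± 0.22 (SE, limma adjusted p = 0.233) in the null against wild type and -0.88 ± 0.24 (SE, limma adjusted p = 0.141) in Fezf2-EnR against the null, neither of them called.

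Egr4 (ENSMUSG00000071341.4, chr6:85511121-85513589, GRCm38) had the widest scatter within genotypes. It stood at 6.76, 10.5 and 10.5 in Fezf2+/+, at 32.14, 13.08, 23.98 and 20.76 in Fezf2-/-, and at 20.9 and 4.37 in Fezf2-EnR. Null and wild type libraries did not overlap, whereas those of Fezf2-EnR spanned the range from below all wild type libraries to within the null range. The null differed from wild type by 1.15 on the log2 scale, with a 95% interval from 0.14 to 2.16 (limma adjusted p = 0.388). With litter as a block this difference was 0.59 (limma adjusted p = 0.699), the lowest of all settings. Against the null, Fezf2-EnR differed by -1.05 (limma adjusted p = 0.328), and by -2.06 without replicate bc208 (limma adjusted p = 0.035). Without replicate bc209 it was -0.035 (limma adjusted p = 0.991), so the size of this difference depends on which Fezf2-EnR library is used.

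Egr1 (ENSMUSG00000038418.7, chr18:34859823-34864984, GRCm38), the family member most used as an activity marker, had the highest median of the 4 in wild type cortex per kilobase of exon, although Egr1 (47.5 to 105) and Egr3 (35.1 to 63.4) overlapped between libraries. It stood at 471, 445 and 213 in Fezf2+/+, at 395, 596, 548 and 397 in Fezf2-/-, and at 264 and 194 in Fezf2-EnR. The wild type library of litter m2 lay far below the other wild type libraries, which were themselves within the null range. The null differed from wild type by 0.42 on the log2 scale (95% interval -0.16 to 1.01, limma adjusted p = 0.626). This value was 0.055 without that litter m2 library (limma adjusted p = 0.933) and 0.63 without replicate bc201 (limma adjusted p = 0.588). In Fezf2-EnR it lay below all null libraries, at 0.473 times the null mean, with a log2 fold change of -1.07 ± 0.30 (SE, limma adjusted p = 0.143).

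Egr1 differed between litters beside genotype. With genotype in the same fit, litter m2 minus litter m1 was -1.06 ± 0.094 (SE) on the log2 scale and litter m3 minus litter m1 was -0.56 ± 0.083 (SE, limma F test, adjusted p = 0.0014). It was the 1 member of 10 called in this test, against 3.01% of all genes tested. This test was chosen after the values by litter had been seen. With litter as a block, the log2 fold change of Egr1 in Fezf2-EnR against the null was -0.54 and was called (limma adjusted p = 0.043), and that of the null against wild type was 0.35 (limma adjusted p = 0.120). In litter m3 the single Fezf2-EnR library stood at 0.666 times the mean of its 2 null littermates. In litter m2 it stood at 0.914 times its 1 wild type littermate. Fos, the classical member of the AP-1 family, was also lowest in litter m2, at 10.5 in wild type and 6.56 in Fezf2-EnR (limma F test for litter, adjusted p = 0.056).

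**Figure D3:**
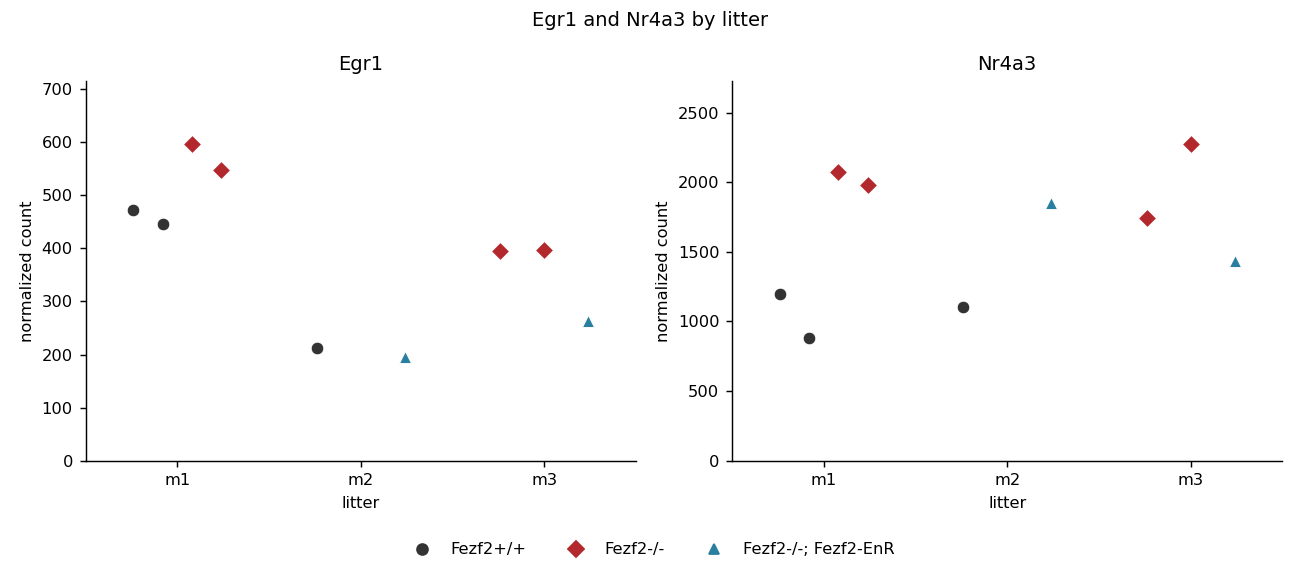
Normalized counts (y axes, from 0) of Egr1 and Nr4a3 in each library by litter (x axis), with shape and colour giving the genotype. For Egr1 the litter m2 libraries, at 213 and 194, lie below all others, whereas for Nr4a3 the Fezf2-/- libraries of litters m1 and m3 lie above all Fezf2+/+ libraries.

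NPAS4 is a bHLH-PAS factor induced by calcium and known for its part in inhibitory synapse formation. Npas4 (ENSMUSG00000045903.8, chr19:4984355-4990316, GRCm38) stood at 16.05, 25.25 and 20.02 in Fezf2+/+, at 35.2, 28.3, 22.9 and 25.8 in Fezf2-/-, and at 11.95 and 8.74 in Fezf2-EnR. Both Fezf2-EnR libraries lay below all others. The log2 fold change in Fezf2-EnR was -1.35 ± 0.27 (SE) against the null (limma adjusted p = 0.0545) and -0.91 ± 0.29 (SE) against wild type (limma adjusted p = 0.154), so neither was called. These Fezf2-EnR values rest on 12 and 8 reads. Without replicate bc208 the difference from the null was called, at -1.56 (limma adjusted p = 0.030), and on leaving out 1 library at a time the adjusted p in limma reached 0.539. In the null against wild type the log2 fold change was 0.44, with a 95% interval from -0.084 to 0.97 (limma adjusted p = 0.558).

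ARC is trafficked to active synapses, where it promotes the removal of AMPA receptors. Arc (ENSMUSG00000022602.14, chr15:74669083-74672570, GRCm38) stood at 26.19, 26.30 and 20.02 in Fezf2+/+, at 46.2, 34.9, 21.9 and 36.6 in Fezf2-/-, and at 41.8 and 14.2 in Fezf2-EnR. The genotypes overlapped in all comparisons. Against wild type, the null differed by 0.48 (95% interval -0.30 to 1.25, limma adjusted p = 0.687), and with litter as a block by -0.053, so no direction is given. Its highest values were those of bc204 and bc208, the libraries with the highest striatal marker sums.

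Btg2 and Ier2 respond to growth factors as well as to activity. Btg2 (ENSMUSG00000020423.6, chr1:134075170-134079120, GRCm38), an antiproliferative gene known to be switched on in progenitors about to produce neurons, stood at 92.9, 97.8 and 121 in Fezf2+/+, at 185, 129, 120 and 132 in Fezf2-/-, and at 222 and 191 in Fezf2-EnR. Both Fezf2-EnR libraries lay above all others. The log2 fold change in Fezf2-EnR was 0.99 ± 0.20 (SE) against wild type (limma adjusted p = 0.096) and 0.56 ± 0.19 (SE) against the null (limma adjusted p = 0.189). The former was called by DESeq2 (0.99, adjusted p = 0.0028) and, in limma, without replicate bc203 (1.10, adjusted p = 0.045), whereas leaving out other libraries gave adjusted p up to 0.382. With litter as a block it was 0.75 and not called (limma adjusted p = 0.134), the lowest of all settings.

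Beside Btg2, Eomes, the marker of intermediate progenitors, stood at 182, 135 and 91.7 in Fezf2+/+, 119, 120, 108 and 59.0 in Fezf2-/-, and 260 and 506 in Fezf2-EnR. It was called in Fezf2-EnR against the null, at 1.88 ± 0.36 (SE, limma adjusted p = 0.043). Eomes was the 1 called of 9 tested neurogenic progenitor genes, whose median was 0.39, against 0.766% of all genes. Whether Eomes bears on the Btg2 values was not tested.

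Ier2 (ENSMUSG00000053560.4, chr8:84661331-84662852, GRCm38), a small nuclear protein gene with 1 exon block, varied least in wild type. It stood at 127, 125 and 124 in Fezf2+/+, at 109, 121, 142 and 100.5 in Fezf2-/-, and at 80.6 and 97.3 in Fezf2-EnR. Both Fezf2-EnR libraries lay below all others, with log2 fold changes of -0.40 against the null (limma adjusted p = 0.238) and -0.50 against wild type (limma adjusted p = 0.164). The null differed from wild type by -0.10 (95% interval -0.40 to 0.21, limma adjusted p = 0.840), and by 0.049 with litter as a block.

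Counted over the 10 members, which all passed the filter of a mean of at least 10, 9 had a positive log2 fold change in the null against wild type, with a median of 0.46 beside 0.00019 over all genes tested. An unadjusted p under 0.05 was reached by 5 members (Egr2, Egr3, Egr4, Nr4a3 and Btg2), against 10.8% of all genes. The libraries of the genotypes did not overlap for 4 members, all of them higher in the null, against 13.0% of all genes. edgeR called 1 member, against 0.877% of all genes, and DESeq2 called 2, against 1.94%.

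In Fezf2-EnR against the null, 9 members had a negative log2 fold change and Btg2 a positive one, with a median of -0.64 beside 0.0030 over all genes. No member was called by limma, against 0.766% of all genes, or by edgeR, against 0.704%. DESeq2 called 1 of the 6 members for which it gave an adjusted p (Egr1, -1.08, adjusted p = 0.0080). It called 2.80% of all genes tested, a share in which genes without an adjusted p count as not called. An unadjusted p under 0.05 was reached by 7 members, against 16.9% of all genes, and 6 members did not overlap between genotypes, 5 lower and 1 higher, against 24.6%. With 2 against 4 libraries, the exact permutation test cannot give a p below 0.0667.

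In Fezf2-EnR against wild type, 5 members were positive and 5 negative, with a median of -0.066 beside -0.0048 over all genes. No member was called by limma, against 0.117% of all genes, or by edgeR, against 0.0926%. DESeq2 called 2 of the 6 with an adjusted p (Nr4a3 and Btg2). It called 3.96% of all genes tested, again with genes without an adjusted p counted as not called. An unadjusted p under 0.05 was reached by 4 members (Npas4, Nr4a3, Btg2 and Ier2), against 19.3% of all genes. These 4 also did not overlap between genotypes, 2 higher and 2 lower, against 34.6%. The smallest p of the exact permutation test is 0.1 here. The comparisons share libraries, since the null libraries serve 2 of them and so do the wild type and Fezf2-EnR libraries, so the directions in one are not independent of those in another.

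All 10 members varied more within genotypes than the median gene tested, whose residual SD was 0.149 on the log2 scale. Egr4 (0.715), Arc (0.545), Egr1 (0.446) and Egr3 (0.428) lay at percentiles 98.0, 95.9, 92.9 and 91.9 of all genes tested, and Ier2 (0.168) was nearest to the median, at percentile 56.7. Egr1 and Egr3 rested on at least 163 reads in every library. The percentiles set genes of unlike level side by side. Mean normalized counts were 15.9 for Egr4, 21.6 for Npas4, 28.4 for Egr2 and 29.8 for Arc, beside a median of 391 over all genes tested. How much of the spread of these members comes from their low counts was not tested. In each wild type and null library, between 3 and 6 of the 10 members lay above their genotype mean. In Fezf2-EnR, 8 members were above it in replicate bc208 and 2 in replicate bc209, these being Nr4a3 and Ier2. With 2 libraries the deviations mirror each other, so these counts describe the same split and must add up to 10.

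The genes whose deviations from the genotype means were most like the mean scaled deviation of the members over the 9 libraries were Clcn2 (Pearson r 0.998, Spearman rho 0.983), Rtel1 (0.990, 0.967), Clec2l (0.9745, 0.917), Zfyve27 (0.974, 0.817), Pkig (0.971, 0.917), Ptpn5 (0.971, 0.717), Ranbp3 (0.970, 0.950), Ercc2 (0.969, 0.767), Cgref1 (0.968, 0.700) and Lmf1 (0.968, 0.867). They were ranked among 12957 genes with a mean of at least 50. The 2 libraries farthest from the median of the members, bc208 and bc209, span the range of the members, and without them r over the other 7 lay between 0.607 (Cgref1) and 0.976 (Clcn2). All points share their libraries, so these values are a description.

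Striatal markers moved with some members. The marker sum was highest in bc204, at 2852, and bc208, at 2204, and Arc (46.2 and 41.8) was highest in the same libraries. Drd2, Adora2a and Gpr6 were highest in these libraries, Drd2, the dopamine receptor of indirect pathway neurons, at 174 and 102 against 15.3 to 41.4 elsewhere. Ppp1r1b, a large part of the sum, stood at 858 and 973 in them and at 856 to 1084 in wild type, and Rgs9 in bc208, at 270.8, lay within the wild type range of 260.2 to 275. None of the markers was at 0 in every library. Without both libraries, Nr4a3 in the null against wild type was as large (0.9998, limma adjusted p = 0.0049). With bc209 as the lone Fezf2-EnR library, Npas4 was then at -1.45 and Nr4a1 at -0.92 in Fezf2-EnR against the null. In Fezf2-EnR against wild type, Arc, Egr4 and Egr3 changed sign, to -0.72, -0.91 and -0.18.

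**Figure D4:**
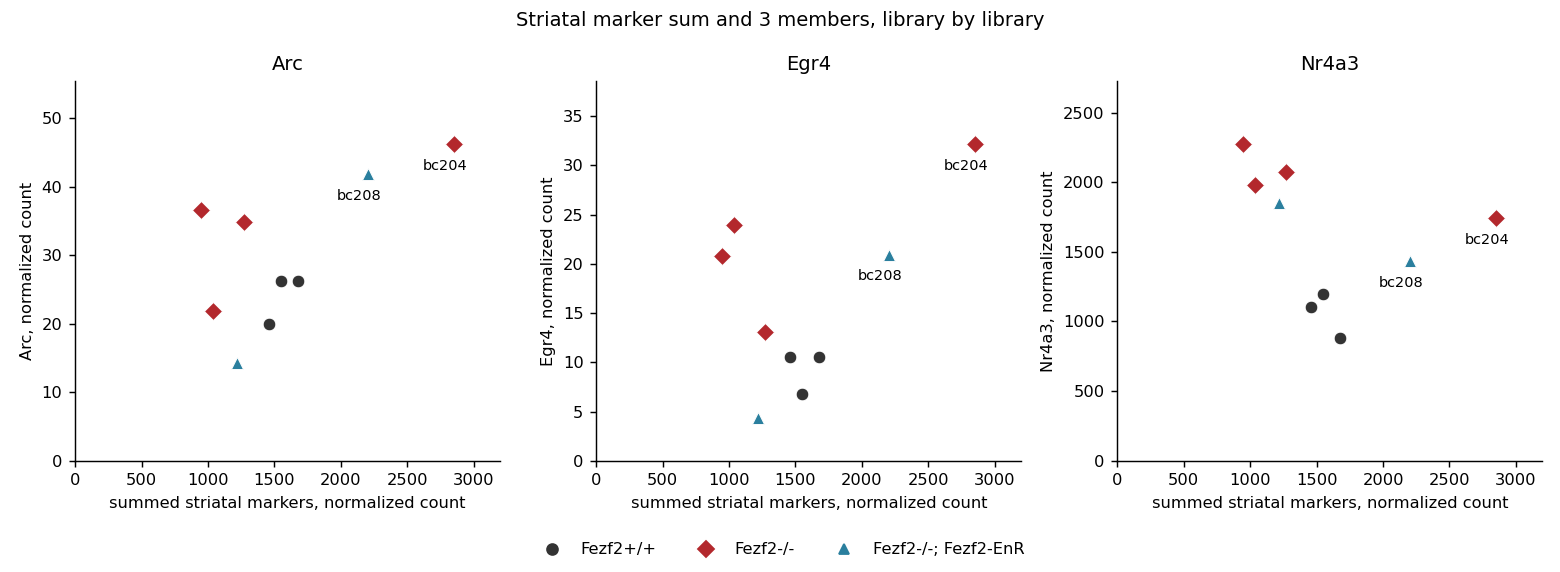
Normalized counts of Arc, Egr4 and Nr4a3 (y axes, from 0) against the summed normalized count of 6 striatal markers (x axis), 1 point per library, with shape and colour giving the genotype. Replicates bc204 and bc208 lie apart on the x axis, with the highest Arc values. Nr4a3 is at 1740 in bc204, the lowest of the 4 Fezf2-/- libraries, and at 1432 in bc208, the lower of the Fezf2-EnR values.

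Other cell types were looked at through their markers. Summed markers of endothelial cells (2372 to 3251), pericytes (2335 to 3487) and microglia (814 to 978) overlapped between null and wild type. So did a list for thalamic neurons (3590 to 4483), but most of its sum was Lhx2, at 2420 to 3271. That overlap thus rests mainly on Lhx2 and says little about thalamic neurons. In the same list Tcf7l2 stood at 44.2 to 69.7, and Gbx2 at 9.04 in bc204 and at most 1.99 elsewhere. Choroid plexus markers summed to at most 31.1. Red blood cell markers summed to 4222 and 4572 in Fezf2-EnR, below the 5115 to 8897 of all other libraries, and thus moved with the same libraries as the Npas4 and Ier2 values. All 6 of these markers had an unadjusted p under 0.05 against the null, beside 16.9% of all genes. None was called, against 0.766% of all genes. The median was -0.61, with 5 markers lower and Slc4a1, an erythrocyte membrane transporter, at 0.71 higher, and their part in the members' values was not tested. Of 6 meningeal fibroblast markers, Lum was called, at -2.40 in the null against wild type (limma adjusted p = 0.018) and 2.30 in Fezf2-EnR against the null (limma adjusted p = 0.043), while the list summed to between 241 and 514 in all libraries with the genotypes overlapping.

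Other parts of the activity pathway were counted in the same way. Over all genes tested, limma called 0.858% in the null against wild type and 0.766% in Fezf2-EnR against the null. In Fezf2-EnR against wild type it called 0.117%. Of the 5 AP-1 factors tested, Fosl2 was called in the null, at 1.43 ± 0.08 (SE, limma adjusted p = 7.4e-06), and in Fezf2-EnR against the null, at -1.28 ± 0.09 (SE, limma adjusted p = 9.6e-05), while Fos stood at 1.18 (limma adjusted p = 0.288) and -1.83 (limma adjusted p = 0.104). Among 29 other rapid primary response genes, Nr4a2 was called in the null and Dusp6, a phosphatase that switches off ERK, in Fezf2-EnR against the null, at -0.67 (limma adjusted p = 0.043), and the list medians were -0.0019 and 0.0044.

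The 19 activity-regulated late genes tested had a median of 0.39 in the null, and 12 had an unadjusted p under 0.05, against 10.8% of all genes. Called were Nrn1, a secreted neurite growth protein, at 1.16 (limma adjusted p = 0.047), and the growth factor gene Igf1, at 0.86 (limma adjusted p = 0.048). In Fezf2-EnR against the null their median was -0.28, with Scg2, a secretory granule protein, called at -1.65 (limma adjusted p = 0.029) and Nptx1, which clusters AMPA receptors, at 0.85 (limma adjusted p = 0.030). Bdnf, the best known late gene of the group, stood at 0.47 in the null (limma adjusted p = 0.518).

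None of the 25 upstream regulators, which include Srf, Creb1, Mef2c and the MAP kinases, was called in any comparison, beside 0.858%, 0.766% and 0.117% of all genes. An unadjusted p under 0.05 was reached by 5 of them in the null against wild type, beside 10.8% of all genes. It was reached by 3 in Fezf2-EnR against the null, beside 16.9%, and by 7 in Fezf2-EnR against wild type, beside 19.3%. The list medians in these comparisons were 0.10, -0.034 and 0.043. Of 15 partners and relatives of the members, Nab1, a corepressor that binds EGR proteins, was called in Fezf2-EnR against the null, at 0.61 (limma adjusted p = 0.039), and Nr4a2 in the null. Against wild type, no gene of these lists was called in Fezf2-EnR, beside 0.117% of all genes. At so small a share, short lists seldom hold a call.

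In each list with no call, the genes farthest from 0 are given here by their log2 fold changes in limma. For the upstream regulators these were the kinase Camk2a (0.35, adjusted p = 0.638) and the acetyltransferase Ep300 (0.32, adjusted p = 0.148) in the null, Camk2a (-0.43, adjusted p = 0.412) and Creb1 (0.37, adjusted p = 0.222) in Fezf2-EnR against the null, and Ep300 (0.56, adjusted p = 0.083) and Creb1 (0.51, adjusted p = 0.137) in Fezf2-EnR against wild type. In Fezf2-EnR against wild type they were Fos (-0.65) and Junb (0.24) among AP-1 factors, Csrnp1 (-0.94) and Zfp36 (0.71) among rapid genes, Scg2 (-0.92) and Cort (0.90) among late genes, Rxrg (0.76) and Tob2 (0.59) among partners and relatives, and Eomes (1.46) and Neurog2 (1.29) among progenitor genes, with adjusted p between 0.113 and 0.750. Progenitor genes in the null were led by Eomes (-0.42) and Mki67 (0.29). Among the 6 heat shock and 9 hypoxia genes tested, which respond to handling and to lack of oxygen, none was called in any comparison. The shares called over all genes were 0.858%, 0.766% and 0.117%. The heat shock medians lay between -0.044 and -0.016, with Hspa1b at -1.34 (adjusted p = 0.624) and Hspa1a at -0.98 (adjusted p = 0.607) in the null, Hspa1a at 0.30 and Hsph1 at -0.10 in Fezf2-EnR against the null, and Hspa1b at -1.38 and Hspa1a at -0.68 against wild type in limma. Both genes were low in litter m3, Hspa1b at 28.1, 50.7 and 38.8 in bc204, bc207 and bc208 against 171 to 341 elsewhere and Hspa1a at 20.1, 28.2 and 34.9 against 76.9 to 130.5, and whether this bears on the members was not tested. Egln3 (0.37) and Adm (0.37) were farthest from 0 among hypoxia genes in the null, Egln3 (-0.30) and Ldha (-0.25) in Fezf2-EnR against the null, and Ldha (-0.30) and Bnip3 (-0.25) against wild type, and the hypoxia medians were -0.044 in the null against wild type, -0.15 in Fezf2-EnR against the null and 0.078 in Fezf2-EnR against wild type.

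**Figure D5:**
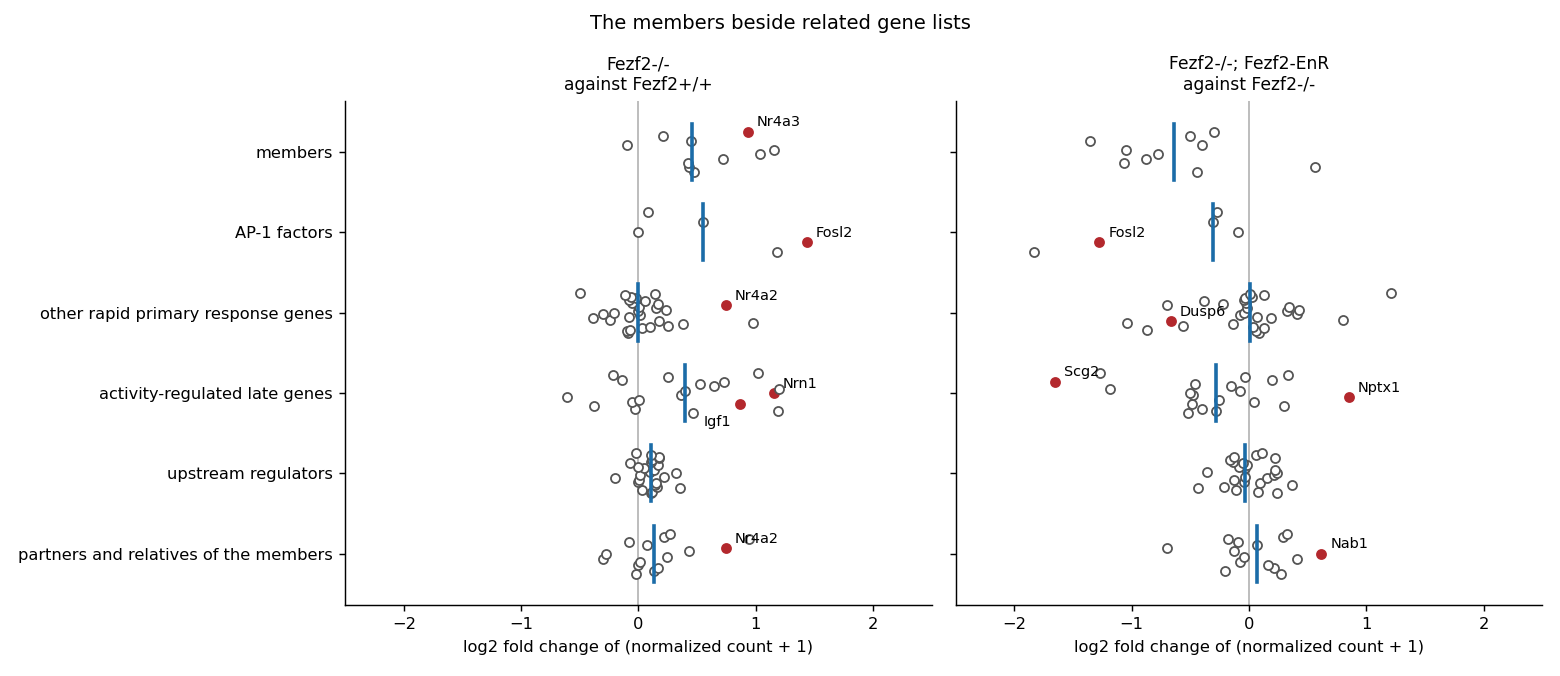
Log2 fold changes of the normalized count plus 1 (x axes) for the members and 5 related gene lists (y axis), in Fezf2-/- against Fezf2+/+ and in Fezf2-EnR against Fezf2-/-. Each circle is a gene, filled red where called, and blue lines are list medians, at 0.46 and -0.64 for the members. Nr4a2 stands in 2 lists.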

How the data were processed

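The 9 libraries were grouped by the genotype in their labels. The authors made paired-end libraries, and the submitters' processing notes name Bowtie, STAR, DESeq and the mm10 build, with no versions. The counting tool and use of strand are not given in the sources used here. The values the authors deposited are a normalized signal, a read count per gene divided by a size factor, to 2 decimals. No member overlaps another gene in GENCODE M21, to which 24595 of 24624 identifiers matched.

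log2(value + 1) was tested with limma 3.58.1 (trend) in R 4.3.3 after a filter that kept 16197 genes (mean of 10 or more), with all 9 libraries in 1 fit, no covariate and Benjamini-Hochberg adjustment over all of them. Groups of 2 rest on the shared spread. Replicates were separate mice. Reads were recovered by dividing each library by the value of 1 read. From 20 to 200, 100% of values were whole within 0.1 in all libraries, 7 by a stricter rule, and all 9 entered edgeR 4.0.16 and DESeq2 1.42.0. Other settings were pseudocounts of 0.1 and 10, no filter, a mean of at least 50, TMM and median-ratio scaling, no trend, only the genotypes of a comparison in the fit, a block for litter, litter m1 by itself, and each library left out. The litter test and leaving out bc204 and bc208 were chosen after the data were seen. The limma step was tested on simulated data.

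The members and lists were chosen with earlier results of these data known. Named are all members, the genes of the lists that were called, 2 of each pathway list where none was called, and the 10 genes most like the members. Values of Bdnf, Fos, Gad1, Slc4a1, Eomes, Hspa1a and Hspa1b by litter, and striatal markers were added after they were seen. Tables and exact tests used Python 3.11.15, pandas 2.3.3 and SciPy 1.17.1, and figures matplotlib 3.10.9.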

Additional observations from a re-analysis of the deposited data

Results flagged for a closer look

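The summed striatal markers of Fezf2-/- were set apart by 1 library. Replicate bc204 stood at 2852, and the other 3 between 949 and 1273, so that the gap to the nearest was 0.8297 of the whole range, just past the 95% critical value of Dixon for 4 samples. Of 20 values looked at, this was the single one past the limit, and chance alone passes about 1 in 20. None of the 10 members was set apart in this way in Fezf2-/-, the only genotype with enough libraries to be looked at.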

How the results depend on the processing

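Over 30 log2 fold changes (10 members in 3 comparisons) and all settings, 628 values were recomputed. Of these, 598 kept direction and were not seen to change side of the threshold, 14 kept direction and passed it, 16 changed sign, and 23 of the 30 never did. The 598 include the DESeq2 values of Egr2, Egr4, Arc and Npas4 in both Fezf2-EnR comparisons, which had no adjusted p and so no side of the threshold. Called members in the null against wild type numbered 1, and 2 in litter m1 alone and by DESeq2, with 1 whichever library was left out. In Fezf2-EnR against the null the count was 0, with 1 with litter as a block, 1 by DESeq2, 2 without bc204 and bc208, and 0 to 2 on leaving out 1 library. Against wild type it was 0, with 2 by DESeq2, 1 without bc204 and bc208, and 0 to 1 on leaving out 1 library. With litter as a block, signs turned for Arc (-0.053) and Ier2 (0.049) in the null, and for Egr3 (-0.18), Egr4 (-0.30) and Arc (-0.22) in Fezf2-EnR against wild type. Ier2 was also positive in litter m1 alone (0.056). Without bc204 and bc208, Egr3 (-0.18), Egr4 (-0.91) and Arc (-0.72) turned in Fezf2-EnR against wild type. Leaving out 1 library gave -1.19 to 0.30 for Arc in Fezf2-EnR against the null, and, against wild type, -0.18 to 0.70 for Egr3, -0.91 to 1.12 for Egr4, -0.72 to 0.78 for Arc and -0.60 to 0.022 for Nr4a1. Without bc208 or bc209, the lone Fezf2-EnR library is assumed to vary like the other groups. No value that was called changed sign. The causes were not tested. Replicate numbers are not shared between genotypes, so the fit with litter as a block is the one that matches littermates. Egr4 rested on 4 to 32 reads a library, and Fezf2-EnR on 2 libraries from different litters.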
